A study of Mus musculus with 7 samples.

Results

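The 7 genes described here encode parts of the machinery that takes apart glycolipids in lysosomes, the digestive compartments of the cell. They are Psap and Gm2a, whose products present lipids to the enzymes, the hydrolase genes Hexa, Gla and Neu1, and Lamp1 and Lamp2, which encode the 2 most abundant proteins of the lysosomal membrane. Their chromatin was measured in macrophages grown from mouse bone marrow, by ChIP-seq, the sequencing of DNA pulled down with an antibody, here one against H3K79me2, a histone mark that carries 2 methyl groups on a lysine in the core of the nucleosome. The members were fixed by name, with earlier results of these data known. Every row of the count table that overlaps the mm10 RefSeq span of a member was taken, and the row with the highest mean count stands for the gene. This gave 13 of the 29397 regions of the table, of which 7 stand for the 7 genes.

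Macrophages digest whole cells and lipoproteins, and their lysosomes receive large amounts of membrane lipid. Glycosphingolipids are shortened there sugar by sugar, and most of the enzymes that do this need a small activator protein that lifts the lipid out of the membrane. H3K79me2 is written by DOT1L, with RNA polymerase II at work, over the first part of transcribed genes, so that a broad stretch of the mark downstream of a promoter is usual for an active gene.

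All cells came from marrow of C57BL/6 mice and were cultured for 7 to 8 days with L929-conditioned medium as the source of M-CSF, the growth factor that turns marrow cells into macrophages. During this time they received either 1 µM SGC0946, an inhibitor of DOT1L, or its solvent DMSO. Each group had 3 libraries, which the design text calls biological replicates. The labels do not say that the libraries come from separate animals, so that p-values measure the spread between these libraries. They mention wild-type and knockout mice and do not state which were used for these samples. An input library named in the labels was not analysed here. The table held 16735417 to 19520933 counts per DMSO library and 2952679 to 3132235 per SGC0946 library. All 8 macrophage markers examined (Csf1r, Adgre1, Cd68, Mertk, Itgam, Spi1, Sirpa and Fcgr1) had a region, although that of Cd68 spans 3 coding genes and lies mostly over Senp3. Of all annotated coding genes, 43.5% had a region. Of 14 markers of other blood, endothelial and stromal cells, 10 had none, the regions of Mpo, Klf1 and Lck held a mean of 1.33 to 4 counts with DMSO and 5.67 to 9 with SGC0946, and that of Zbtb46 spanned 3 coding genes. In library share Mpo (log2 3.76, edgeR adjusted p = 1.84e-07) and Lck (log2 4.43, adjusted p = 4.03e-06) were called higher and Klf1 did not pass the count filter. The Zbtb46 region, which overlaps Zgpat the most, went from a mean of 1798 to 225 counts. It was called lower in share (log2 -0.45, edgeR adjusted p = 4.73e-08). Among the 8 macrophage markers, 2 were called higher in share, 1 lower and 5 were not called (edgeR adjusted p under 0.05). Those called higher were Sirpa (log2 1.52) and the Cd68 region (log2 0.73), and Mertk (log2 -0.57) was called lower. Over all coding genes 9.55% were called higher and 48.2% lower. The part of other cells in the results on the 7 genes was not tested.

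The regions covered nearly the whole of most member genes. The same regions serve all libraries, so their extents cannot be credited to either group. The Lamp1 region (chromosome 8, 13158516 to 13174752) reached from -645 to 15591 bp relative to the annotated start and covered 96.4% of the gene. The Psap region (chromosome 10, 60269820 to 60301792) reached from -7808 to 24164 bp relative to the start and covered 96.8% of the gene, and no other annotated gene overlaps it. The Hexa region (chromosome 9, 59538742 to 59563096) covered 92.1% of Hexa and touched the neighbouring coding gene Tmem202. The Neu1 region (chromosome 17, 34931234 to 34936549) covered 87.6% of a short gene of 6045 bp. The Gla region (chromosome X, 134585870 to 134606312) held the whole gene together with parts of the coding genes Hnrnph2 and Rpl36a, so its counts cannot be credited to Gla alone. Because the annotation used gave no exons, positions inside a gene are given as distance from its start.

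In Gm2a and Lamp2 the main region covered the first part of the gene. The main Gm2a region (chromosome 11, 55098108 to 55103064) started 123 bp after the gene start and covered 32.9% of the gene, and a further region of 500 bp (55103203 to 55103702) followed it. The main Lamp2 region (chromosome X, 38435016 to 38456673) covered the first 21444 bp after the start, 37.7% of the gene. A non-coding gene model, LOC115489130, overlaps it. Beyond it lay 5 small regions of 500 to 2581 bp, the last ending 40537 bp from the start. Their densities with DMSO fell with distance, from 157 counts per kb in the main region to 46.8, 33.4, 28.7, 25.2 and 21.0 in the small ones. The 25% of all regions with the fewest DMSO counts per kb had 21.4 ± 1.91 counts per kb (SD, n = 3), so the outermost Lamp2 regions lay close to that level.

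**Figure D1:**
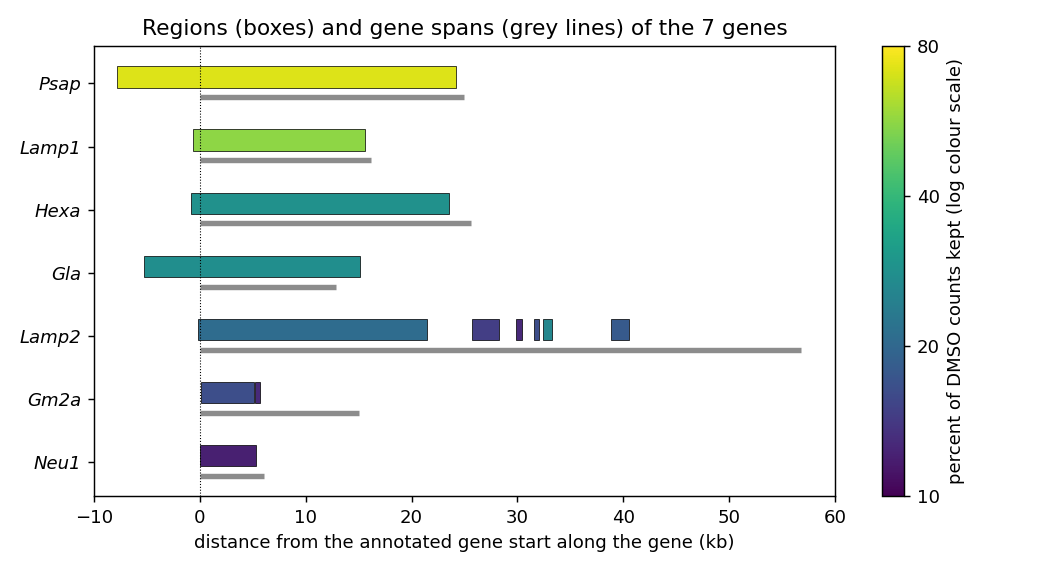
Regions of the 7 genes as boxes along the gene, in kb from the annotated gene start (x axis), with the gene span as a grey line below and the colour giving the percentage of DMSO counts kept with SGC0946. The Psap box begins at -7808 bp, far upstream of the gene start, and Lamp2 carries 5 small regions beyond its main one.

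The promoters of the members differ in a motif known from lysosomal genes. Many lysosomal genes carry the CLEAR element, to which the transcription factor TFEB and its relatives bind and whose core is the E-box CACGTG. RefSeq promoter windows (build GRCm38.p6, the assembly that mm10 names, 250 bases before to 50 after the start) matched all 7 genes. CACGTG, which reads the same on both strands, was found 4 times in the window of Lamp1 and 2 times in that of Gla, and in none of the windows of Psap (which has 2), Hexa, Neu1, Gm2a and Lamp2. Of all 32851 windows in the table, 7.15% held the motif at least once, 0.594% at least 2 times and 0.0244% (8 windows) at least 4 times. A match describes the letters and is no evidence of binding. The stretches below run 5′ to 3′ along the gene and end at the base before its start, with CACGTG in capitals. Lamp1 and Gla are shown because they hold the motif, Psap and Neu1 because they kept the most and the least of the mark.
Lamp1, chr8:13159041-13159160, plus strand: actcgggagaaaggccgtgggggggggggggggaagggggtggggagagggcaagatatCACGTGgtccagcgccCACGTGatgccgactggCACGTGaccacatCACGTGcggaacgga
Gla, chrX:134601006-134601255, minus strand: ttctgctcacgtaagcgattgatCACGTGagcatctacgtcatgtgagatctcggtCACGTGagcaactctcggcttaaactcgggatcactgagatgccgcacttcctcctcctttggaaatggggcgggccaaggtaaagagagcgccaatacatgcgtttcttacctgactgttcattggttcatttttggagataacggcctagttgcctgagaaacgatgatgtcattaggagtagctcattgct
Psap, chr10:60277508-60277627, plus strand: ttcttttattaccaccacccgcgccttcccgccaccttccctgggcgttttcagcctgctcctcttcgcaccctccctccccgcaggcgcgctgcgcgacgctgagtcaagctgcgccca
Neu1, chr17:34931133-34931252, plus strand: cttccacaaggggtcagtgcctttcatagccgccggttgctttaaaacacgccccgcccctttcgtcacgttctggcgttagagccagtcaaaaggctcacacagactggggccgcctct

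The 4 sites of Lamp1 start 61, 45, 28 and 15 bases before the gene start, and those of Gla 227 and 194 bases before it. The promoter windows at the gene starts of Psap, Hexa, Gla and Lamp1 lay wholly inside the marked region. The Lamp2 window lay inside it for 263 of 300 bases and the Neu1 window for 69. The Gm2a window lay outside. GC content of these windows ran from 49.3% in Gla to 65.7% in Gm2a, against a median of 52.7% over all windows.

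Setting the inhibitor libraries against the solvent libraries asks how the counts of the mark over each gene differ with DOT1L inhibited. The unscaled counts of all 7 genes fell, but by very different amounts: Psap kept 71.9% of its DMSO counts, Lamp1 56.0%, Hexa 28.4%, the Gla region 27.6%, Lamp2 20.6%, Gm2a 16.4% and Neu1 12.0%. The fall passed the edgeR quasi-likelihood test for 7 of 7 genes (adjusted p under 0.05), as it did for 99.8% of the 8373 coding genes tested through their standing region. Whether fewer cells carried the mark or each cell carried less of it cannot be told apart in bulk chromatin. With no spike-in named and no total reads per library used here, lower depth or yield of the SGC0946 libraries cannot be told apart from less of the mark either: the sparsest 25% of regions also went from 21.4 ± 1.91 to 6.63 ± 1.24 counts per kb (SD, n = 3). Because nearly everything fell, a second fit asked whether the share of a gene in its library's counts changed, in CPM, the usual scaling of counts to the total of the library over the regions. In share, 5 of 7 members (Psap, Lamp1, Hexa, Gla and Lamp2) were called higher, where 9.55% of 8357 coding genes were, and 1 of 7 (Neu1) was called lower, where 48.2% were. All 7 passed the count filter. The median log2 change in share was 0.70 over the members and -0.28 over all coding genes. On unscaled counts the same medians were -1.86 and -2.83. The members were chosen with earlier results of these data known, so these contrasts with all coding genes are a description.

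**Figure D2:**
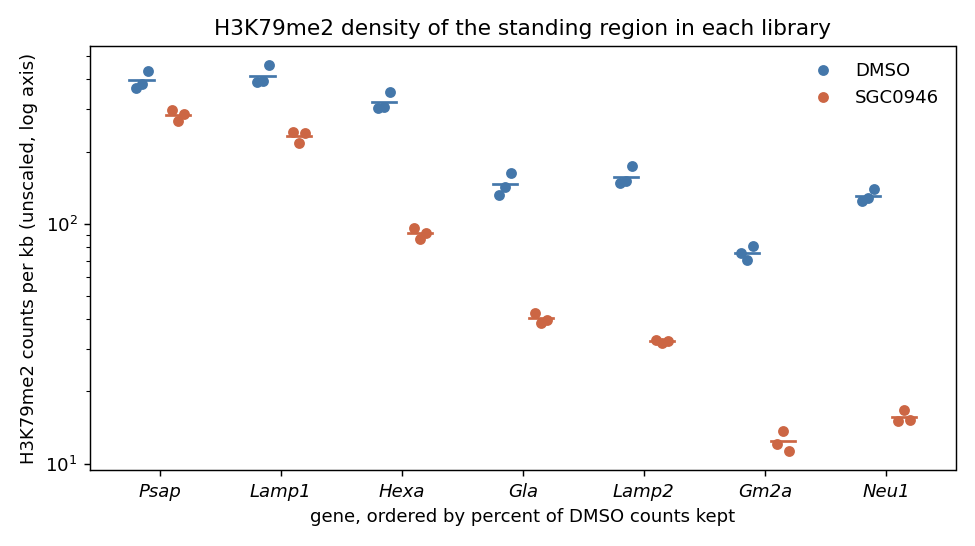
H3K79me2 counts per kb of the standing region (y axis, unscaled, log axis) of each gene (x axis) in each library (points, 3 per group) with the group mean as a line. The groups do not overlap for any of the 7 genes. How often they do not overlap over all coding genes was not tested. By another measure, the edgeR test on unscaled counts, 99.8% of 8373 coding genes were called lower. Genes are ordered by the percentage kept, so the gap widens by that order from Psap on the left to Neu1 on the right.

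Psap encodes prosaposin, which is cut into saposins A to D, the activators of several glycolipid hydrolases. It had 11823, 12232 and 13916 counts in the DMSO libraries and 9558, 8580 and 9180 in the SGC0946 libraries. Every SGC0946 library lay below every DMSO library, yet by a small step: the mean went from 12657 ± 1109 to 9106 ± 493 (SD, n = 3), 1.39-fold lower (log2 -0.48 ± 0.09 SE, edgeR adjusted p = 4.58e-07 on unscaled counts). As a share of the library Psap went from 706 to 720 CPM with DMSO to 2854 to 3109 CPM with SGC0946, a 4.21-fold higher mean (log2 2.08 ± 0.03 SE, edgeR adjusted p = 7.71e-55). With SGC0946 the Psap region still held 285 ± 15.4 counts per kb (SD, n = 3), more than Gla, Lamp2, Neu1 or Gm2a held with DMSO.

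Gm2a encodes the activator that hands a ganglioside to the hexosaminidase that contains the product of Hexa. Its main region had 373, 350 and 399 counts with DMSO and 60, 68 and 56 with SGC0946. The groups were far apart, and the region kept 16.4% ± 1.96 (SD propagated from both groups, n = 3 each; edgeR adjusted p = 1.55e-58 on unscaled counts). Its CPM of 20.4 to 22.3 with DMSO and 19.0 to 22.6 with SGC0946 overlapped, and the change in share did not pass the test (log2 -0.06 ± 0.12 SE, edgeR adjusted p = 0.793). With the density of the sparsest 25% of regions subtracted from each library, the main region kept 10.6%. The further Gm2a region of 500 bp went from 19, 19 and 32 counts to 3, 4 and 2. It kept 12.9%, with a propagated SD of 5.96, and was called lower on unscaled counts (edgeR adjusted p = 2.29e-10) but not in share (adjusted p = 0.654).

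Hexa encodes the alpha subunit of lysosomal beta-hexosaminidase. The region had 7385, 7454 and 8610 counts with DMSO and 2332, 2107 and 2223 with SGC0946, and kept 28.4% ± 2.89 (propagated SD, n = 3 each). Its CPM was 439 to 441 in the DMSO libraries and 701 to 753 in the SGC0946 libraries, so that the share was higher in all 3 (log2 0.73 ± 0.04 SE, edgeR adjusted p = 3.01e-26). Gm2a, the gene of its activator, had no called change in share: within each library the count of Hexa was 19.8 to 21.6 times that of Gm2a with DMSO and 31.0 to 39.7 times with SGC0946.

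Gla encodes alpha-galactosidase A, the enzyme missing in Fabry disease, which works with saposin B from prosaposin. The region that also holds Hnrnph2 and Rpl36a had 2701, 2922 and 3328 counts with DMSO and 870, 791 and 813 with SGC0946. It kept 27.6% ± 3.25 (propagated SD, n = 3 each), and its share rose from 161 to 172 CPM to 263 to 278 CPM (log2 0.70 ± 0.05 SE, edgeR adjusted p = 2.13e-20). How much of this belongs to each of the 3 genes was not tested.

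Neu1 encodes the lysosomal sialidase that removes terminal sialic acids. It lost the most of the 7, from 664, 678 and 745 counts with DMSO to 80, 89 and 81 with SGC0946. The region kept 12.0% ± 1.03 (propagated SD, n = 3 each), an 8.35-fold fall on unscaled counts. Its share went down from 38.2 to 39.9 CPM to 25.5 to 29.6 CPM with no overlap (log2 -0.51 ± 0.10 SE, edgeR adjusted p = 2.51e-05). Over all coding genes the median kept was 14.1% and the quartiles were 12.4% and 17.1%, so Neu1 lay just under the lower quartile.

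Lamp1 and Lamp2 encode related glycoproteins that line the lysosomal membrane, and Lamp2 has a further role in the fusion of autophagosomes and in chaperone-mediated autophagy. Lamp1 had 6341, 6416 and 7437 counts with DMSO and 3904, 3517 and 3882 with SGC0946. It kept 56.0% ± 6.03 (propagated SD, n = 3 each), and its share rose from 378 to 381 CPM to 1170 to 1315 CPM (log2 1.71 ± 0.04 SE, edgeR adjusted p = 1.83e-47). The main Lamp2 region had 3196, 3258 and 3756 counts with DMSO and 710, 692 and 703 with SGC0946, and kept 20.6% ± 1.88. Its share rose far less, from 191 to 192 CPM to 227 to 238 CPM (log2 0.27 ± 0.05 SE, edgeR adjusted p = 2.31e-06). The 5 small Lamp2 regions together held 213 counts with DMSO and 34.7 with SGC0946, 16.3% kept, and singly they kept 12.7% to 26.2%. All 5 were called lower on unscaled counts and none of the 4 tested for share passed (edgeR adjusted p of 0.368 to 0.931).

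Ratios of counts within a library do not depend on how libraries are scaled to each other. They are given here as a description: the pairs were ordered by the percentage kept itself, which fixes the direction of each ratio, and 3 against 3 libraries allow no exact permutation p under 0.1. Of the 6 neighbouring pairs, 5 had ratios that did not overlap between the groups. How often pairs drawn from all coding genes do not overlap was not tested. The ratio of Psap to Lamp1 went from 1.88 ± 0.0225 with DMSO to 2.42 ± 0.0459 with SGC0946, and that of Lamp1 to Hexa from 0.861 ± 0.00258 to 1.70 ± 0.0432 (SD, n = 3). The ratios of the Gla region to Lamp2, of Lamp2 to Gm2a and of Gm2a to Neu1 became 1.34, 1.26 and 1.37 times larger. The ratio of Hexa to the Gla region overlapped between the groups, with 2.62 ± 0.0970 and 2.69 ± 0.0369 (SD, n = 3).

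Pairs that work together were chosen after the data were seen, so their ratios are also a description. The ratio of Lamp1 to Lamp2 counts was 1.97 to 1.98 in the DMSO libraries and 5.08 to 5.52 in the SGC0946 libraries, a 2.71-fold difference. The ratio of Psap to the Gla region went from 4.25 ± 0.112 to 11.0 ± 0.227, and that of Hexa to Gm2a from 20.9 ± 0.957 to 36.5 ± 4.81 (SD, n = 3). None of these 3 ratios overlapped between the groups, and the share of such pairs over all coding genes was not tested.

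The genes that kept most were also among the densest with DMSO, with exceptions. Per length, DMSO density ran from Lamp1 (415 ± 37.7 counts per kb) and Psap (396 ± 34.7) over Hexa (321 ± 28.3), Lamp2 (157 ± 14.2), the Gla region (146 ± 15.6) and Neu1 (131 ± 8.14) to Gm2a (75.4 ± 4.95; SD, n = 3). In this order the DMSO libraries of Lamp1 and Psap, of Lamp2 and the Gla region, and of the Gla region and Neu1 overlapped. Psap (370 to 435) and Hexa (303 to 354) did not overlap, nor did Hexa and Lamp2 or Neu1 and Gm2a. Among the 7122 coding genes whose standing region had a mean of at least 50 counts, Psap ranked 57 and Lamp1 32 in density, and 4 and 13 in percentage kept. When these genes were split by DMSO density into 10 bins of equal size, the densest bin kept a median of 20.0%, with its 90th percentile at 34.3%. Psap and Lamp1 lay above that percentile and Hexa between the median and it. The bin that holds Lamp2 and the Gla region, which spans 3 coding genes, kept a median of 12.7%. Its 90th percentile was 16.0%, and both regions lay above it. Gm2a kept slightly more than the 90th percentile of its bin (16.4% against 16.0%). Neu1 had nearly the density of the Gla region and kept less than the median of its bin (12.0% against 12.5%). These positions are descriptions, and the part of density in the differences was not tested.

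**Figure D3:**
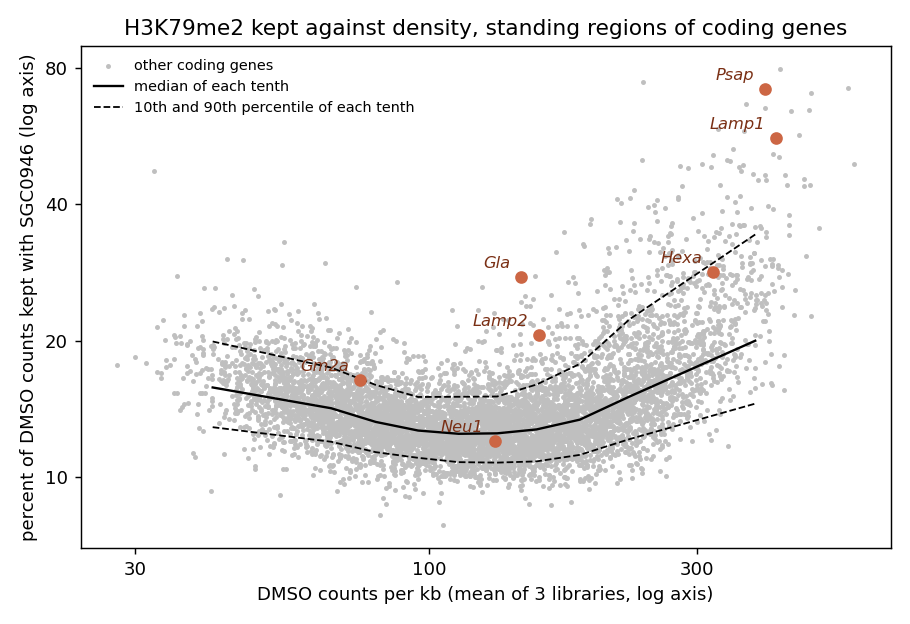
Percentage of DMSO counts kept with SGC0946 (y axis, log) against DMSO counts per kb (x axis, log) for the standing regions of 7122 coding genes (grey points), with the median, the 10th and the 90th percentile of each of 10 density bins as lines and the 7 members as named points. Psap (71.9%) and Lamp1 (56.0%) stand above the 90th percentile of the densest bin, and Neu1 (12.0%) lies just under the median of its own.

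A share is taken of the library total and can rise when others fall further. With other scalings the counts are set against another reference, so they are no longer shares, and the calls can differ. With TMM factors or DESeq2 size factors the median log2 change of all coding genes was -0.14 and -0.13, and Psap, Lamp1, Hexa, Gla and Lamp2 were again called higher and Neu1 lower, while the sign for Gm2a flipped without a call (0.08 and 0.09). With libraries scaled on the sparsest 25% of regions the median was -1.12. Under that scaling Psap (log2 1.26) and Lamp1 (0.90) were still called higher, Hexa (-0.09, edgeR adjusted p = 0.708) and Gla (-0.13, adjusted p = 0.529) were not called, and Lamp2 (-0.55, adjusted p = 0.0048), Gm2a (-0.91) and Neu1 (-1.36) were called lower. Rescaling moves all genes by nearly the same amount, so distances from the median of all genes hardly change whatever the data, and they test nothing. Psap lay 2.35 above that median on library totals and 2.38 above it on the sparse regions. Lamp2 lay 0.55 and 0.57 above it, and Neu1 0.23 and 0.24 below it.

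**Figure D4:**
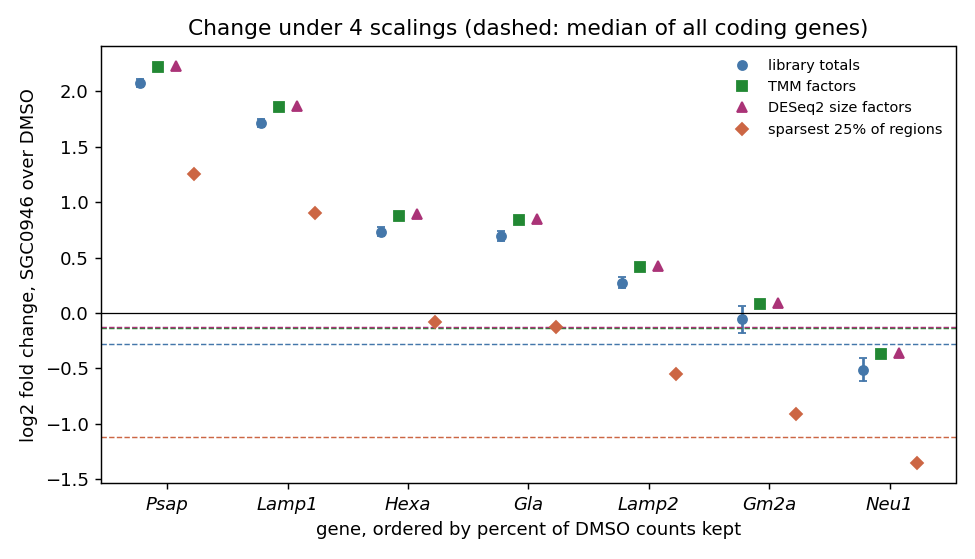
Log2 fold change of SGC0946 over DMSO (y axis) of each gene (x axis) with libraries scaled by their totals (circles, bars give the SE), by TMM factors, by DESeq2 size factors and on the sparsest 25% of regions, with the median of all coding genes under each scaling as a dashed line of the same colour. Psap and Lamp1 lie above 0 under all 4, Neu1 lies below 0 under all 4, and Hexa, Gla, Lamp2 and Gm2a change sign with the scaling.

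The genes with the profile closest to a member over the 6 libraries were found by Euclidean distance of log2(CPM + 0.5) minus the gene's own mean, among 7121 other coding genes with a mean of at least 50 counts. Nearest to Psap were Rap1b (70.5% kept, distance 0.0825), a small GTPase, and Rbpj (72.4%, distance 0.0880), the DNA-binding factor of Notch signalling. Nearest to the Gla region, the member with the median percentage kept, were the transcription factor genes Mef2a (27.9%, distance 0.0373) and Sp3 (27.3%, distance 0.0392). Nearest to Neu1 were Snx27 (12.0%, distance 0.0497), which sorts endosomal cargo, and the splicing factor gene Prpf31 (11.5%, distance 0.0512).

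Every gene of the 5 wider lists below that had a region kept less than Psap and Lamp1. Of 11 further genes for glycolipid hydrolases, their activators and partners, 10 had a region, and Smpd1 had none. None of the 10 was called higher in share (9.55% of all coding genes were) and 5 were called lower (48.2% of all coding genes were), a share near that background, with a median log2 change of -0.28, the same as over all coding genes. Lipa, the lysosomal acid lipase gene (5267 to 968 counts), kept 18.4%, and the acid ceramidase gene Asah1 17.7%. At the low end was Scarb2, a lysosomal membrane protein gene (2505 to 282 counts, 11.3% kept). Glb1 (12.4%) and Ctsa (17.5%), whose products form a complex with the Neu1 sialidase, stood beside 12.0% for Neu1. Glb1, like Neu1, was called lower in share (log2 -0.46, edgeR adjusted p = 3.96e-10) and Ctsa was not called (log2 0.03, adjusted p = 0.775). Both of their regions overlapped a second coding gene. TMM factors and DESeq2 size factors each called 2 of the 10 higher and 3 lower, and the DESeq2 Wald test 0 and 2. Of 8357 coding genes, TMM factors called 1011 higher and 2627 lower, and DESeq2 size factors 999 and 2384. The Wald test called 1077 and 2175 of 8823. Without SGC0946 replicate 2, 1 of the 10 was called higher and 3 lower, beside 866 and 3775 of 8627 coding genes. Without DMSO replicate 2, 1 was called higher, beside 748 of 7600.

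Of 14 other lysosomal glycosidase and sulfatase genes, 12 had a region, of which 1 was called higher in share and 7 lower (median log2 -0.40), beside 9.55% and 48.2% of all coding genes. Aga, for aspartylglucosaminidase, kept 14.3%. Sgsh (11.5%), whose region is mostly that of Slc26a11, and the beta-mannosidase gene Manba (12.1%) kept the least, leaving out regions whose mean is under 50 counts. The 7 calls of lower share became 3 with TMM factors or DESeq2 size factors and 1 with the DESeq2 Wald test, and 4 without SGC0946 replicate 2. Over all coding genes lower calls also fell, from 4031 of 8357 to 2627 and 2384, and to 2175 of 8823 with the Wald test. Without SGC0946 replicate 2 they were 3775 of 8627.

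Among other lysosomal membrane protein genes, 9 of 11 had a region and Lamp3 and Lamp5 had none. Of the 9, 3 were called higher in share and 4 lower (median log2 -0.38), beside 9.55% and 48.2% of all coding genes. The transmembrane protein genes Laptm5 (24.0% kept) and Laptm4a (22.2%) were called higher, and so was the region of Cd68 (28.3%), which spans 3 coding genes and lies mostly over Senp3. Tmem192 (11.3%) and Cln3 (12.1%) kept the least. None of the 9 kept as much as Lamp1.

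All 11 genes for delivery of hydrolases and prosaposin to lysosomes had a region, of which 1 was called higher in share and 5 lower (median log2 -0.32), near the 9.55% and 48.2% of all coding genes. Lrp1, a receptor that takes up prosaposin with other ligands, kept 23.9% (5198 to 1243 counts, log2 share 0.48, edgeR adjusted p = 1.33e-15), and M6pr, a mannose 6-phosphate receptor gene, 18.8%. Grn, whose product progranulin binds prosaposin, kept 18.7% (log2 share 0.13, edgeR adjusted p = 0.0821). The sorting adaptor genes Gga2 (9.72%) and Gga1 (10.9%) kept the least. TMM factors and DESeq2 size factors each called 3 of the 11 higher, and 2 were called higher without DMSO replicate 2 or without SGC0946 replicate 2. In the same order, these settings called 1011 and 999 of 8357, 748 of 7600 and 866 of 8627 coding genes higher.

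On the side of synthesis, 7 of 9 genes for glycosphingolipids and gangliosides had a region, of which 3 were called higher in share and 2 lower (median log2 0.11), beside 9.55% and 48.2% of all coding genes. B4galt5, which makes lactosylceramide, kept 28.0% of a very large count (21106 to 5913, log2 share 0.71, edgeR adjusted p = 7.83e-29), while Ugcg, which makes the glucosylceramide it works on, kept 12.4% (log2 share -0.46, adjusted p = 1.12e-11). St3gal2 kept 19.5% and B3galt4, whose region overlaps a second coding gene, 10.1%. On unscaled counts every tested gene of these 5 lists was called lower, as were 99.8% of all coding genes. With libraries scaled on the sparsest 25% of regions no gene of the 5 lists was called higher, and in list order 10, 12, 7, 10 and 6 were called lower. Under that scaling most coding genes were called lower too, 7284 of 8357, and 110 were called higher.

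**Figure D5:**
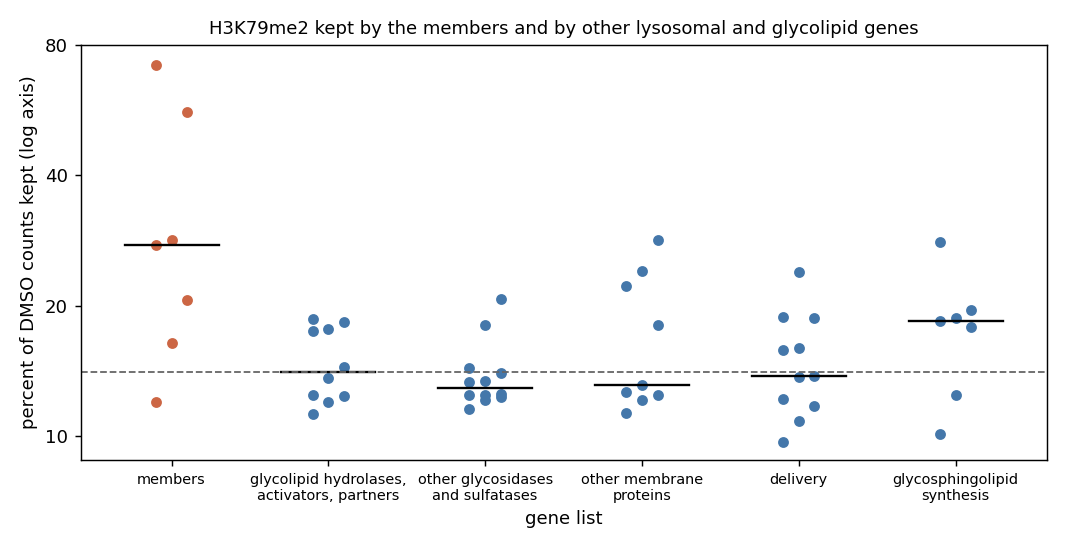
Percentage of DMSO counts kept with SGC0946 (y axis, log) by the 7 members and by the tested genes of 5 lists (x axis), with 1 point per gene, the list's median as a solid line and the median of all coding genes (14.1%) as a dashed line. Psap and Lamp1 lie above every gene of the other lists, and Neu1 lies among their lower values.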

How the data were processed

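The deposited table gives whole-number read counts per region for 6 H3K79me2 ChIP libraries, unscaled as far as its totals show. The build is mm10. Tools named, per the submitters' processing notes, are R 3.6.3, ChIPseeker 1.20.0, HOMER 4.11.1, HISAT2 and bedtools 2.27.0. Region calling, pooling of samples for it, read counting and the handling of duplicates or multiply mapped reads can change counts, and their settings are not given in the sources used here. The labels name 1 nominal read depth for all libraries and no spike-in.

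Region starts were read as zero-based and are printed 1-based. Regions were assigned to RefSeq coding genes of GRCm38.p6 by longest overlap (for members and listed genes, by any overlap) with Python 3.11.15 and pandas 2.3.3. Counts over all regions entered the quasi-likelihood F test of edgeR 4.0.16 (R 4.3.3, filterByExpr, Benjamini-Hochberg adjustment over all regions tested, 23367 in share and 24895 unscaled). Library size was the total count for shares and equal for unscaled counts. SEs were derived from the fold change and F. Percentages kept are mean SGC0946 over mean DMSO counts. The fit in share was also run on simulated data in which few regions changed, unlike the many called here. DESeq2 1.42.0 served as an alternative. Replicate libraries differed by more than sampling noise (chi-square per degree of freedom 1.32 to 2.38). Listed genes were named by a rule: all members, and in each list the 2 with the most and the 2 with the least kept at a mean of at least 50 counts. Ratios by role were chosen after the data were seen. Glb1, Ctsa, Laptm4a, Grn, Mpo, Klf1, Lck, Zbtb46 and the genes without a region were named outside it after their values were seen. Some genes that this rule selects are not reported here. The members and lists were chosen with earlier results of these data known.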

Additional observations from a re-analysis of the deposited data

How the results depend on the processing

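The unscaled fall of all 7 members kept its direction and its call under each alternative run: no count filter, the DESeq2 Wald test, summed regions of a gene, the replicate block and leaving out each library. The calls in share of the members (5 higher, 1 lower) were the same under TMM factors, DESeq2 size factors, the DESeq2 Wald test, no filter, summed regions and without each library. They became 2 higher and 3 lower with scaling on the sparsest 25% of regions, where the log2 changes of Hexa, Gla and Lamp2 were -0.0857, -0.130 and -0.552. Gm2a was called lower there (-0.91) and went from -0.06 to 0.0783 with TMM factors, 0.09 with DESeq2 size factors and 0.0482 with the DESeq2 Wald test. Of all coding genes, 798 were called higher and 4031 lower in share, and scaling on the sparsest regions gave 110 and 7284. Lower calls were 2627 with TMM factors, 2384 with DESeq2 size factors and 2175 with the DESeq2 Wald test. Rises were then 27.8%, 29.5% and 33.1% of all calls, against 16.5% on library totals and 1.49% on the sparsest regions. The cause was not tested. With summed regions 1 glycolipid hydrolase gene was called higher, against 0, where 942 of 8395 coding genes were called higher. Subtracting the density of the sparsest regions moved the percentage kept to 8.27% for Neu1 and 10.6% for Gm2a and stayed within the propagated SD for the other 5. No pairing of libraries by the replicate numbers M1 to M3 was visible (same-number correlations of deviations 0.00762, -0.115 and -0.00987). Correlations between libraries of different number were of similar size. With so few libraries per group, the check cannot tell whether libraries of the same number share an animal. With the replicate block 5 members were called higher and 1 lower. Counts of 1 to 25 per library, as in the small Lamp2 and Gm2a regions with SGC0946, limit what can be said of those regions.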
